A study of Mus musculus with 8 samples.

Results

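Binding of the lectin UEA1 (Ulex europaeus agglutinin I) was set beside the RNA of 4 fucosyltransferase genes, Fut1, Fut2, Fut4 and Fut9, in mouse thymic stroma. They are 4 of the 55487 genes of the RNA table, read beside 1 of the 27 surface tags, and were chosen by name to ask which enzyme runs parallel to lectin binding over the subtypes of thymic epithelial cells (TEC), the libraries and the ages. CITE-seq, a droplet method, counted RNA molecules (unique molecular identifiers, UMIs) and DNA-tagged surface reagents in the same cells. The cells came from wild-type C57BL/6 mice aged 1 week or 16 weeks, with no treatment at either age. After depletion of CD45-positive cells, EpCAM1-positive cells and a smaller share of EpCAM1-negative cells were sorted into 1 tube per age. Each tube held several thymi and was loaded on 2 wells, here replicates 1 and 2, so the spread between replicates is that between wells of 1 pool, and age cannot be told apart from the pool.

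UEA1 binds fucose on the H antigen, the sugar structure of blood group O, and is used to label medullary TEC (mTEC) and the microfold cells of the gut. The final step of the H antigen is the transfer of fucose in α1,2 linkage to a terminal galactose. Fut1 and Fut2 encode enzymes that do this, Fut1 being known as the H enzyme and Fut2 as the secretor enzyme of mucosal epithelia, and the mouse has a further gene of the kind, Sec1. Fut4 and Fut9 encode α1,3-fucosyltransferases, which place fucose on N-acetylglucosamine and make Lewis x. Cortical TEC (cTEC) select thymocytes and mTEC display self antigens. Among mTEC, mature cells carry AIRE, CD80 and much MHC class II (MHCII), tuft-like cells resemble chemosensory cells of the gut, and intertypical TEC share cortical and medullary features.

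In GRCm38, the build that the study calls mm10, Fut1 (ENSMUSG00000008461) lies on the plus strand of chromosome 7 at 45617289 to 45621059. Fut2 (ENSMUSG00000055978) lies nearby on the minus strand at 45648591 to 45666394, and Sec1 next to it at 45677686 to 45694402, where it overlaps Ntn5. Fut4 (ENSMUSG00000049307) lies on the minus strand of chromosome 9 at 14748320 to 14752393 and Fut9 (ENSMUSG00000055373) on the minus strand of chromosome 4 at 25609332 to 25800244. Reads came from the 3′ ends of transcripts, so each gene is compared with itself across cells and not with the other genes. Near-identical copies may share reads, which counts of Fut2 and Sec1 cannot show.

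The lectin carried biotin and was read out through a streptavidin-PE conjugate whose oligonucleotide held the barcode below. It is shown beside the barcode of MHCII, the tag that took most of the counts, and that of CD73, 1 of the nearest barcodes in the panel. Each is given whole.
UEA1: aacctttgccactgc
MHCII: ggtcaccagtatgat
CD73: acacttaacgtctgg
CD73 and Sca1 differed from the lectin barcode at 7 of 15 positions, MHCII at 13, and no other tag at fewer than 10.

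The 4 RNA libraries held 1430 to 4738 cells and 21281389 to 45480790 UMIs, with medians of 6668.5 to 8690.5 UMIs per cell, and 15 cell barcodes occurred in more than 1 library. Median tag counts per cell were 3082.5 and 3128.5 at 1 week against 1798 and 1384.5 at 16 weeks. RNA clusters with epithelial markers held 6565 cells, of which 6184 were kept after a shallow cluster of 381 cells was left out. Mature mTEC (1235 cells), tuft-like mTEC (119) and cTEC (1660) carried all markers listed for them, and intertypical TEC (2472) 5 to 7 of 8. Proliferating TEC formed a UEA1-high cluster of 244 cells, called cluster 11 here, and a UEA1-low cluster of 454 cells. The 4 members and the other glycosylation genes were left out of the genes used for clustering. Among TEC, 1072 UMIs fell on Fut1, 396 on Fut2, 302 on Fut4 and 192 on Fut9.

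UEA1 was higher on intertypical TEC and on mature and tuft-like mTEC than on cTEC in every library. On cTEC the mean tag level was 7.66 and 7.54 in the 1-week libraries and 7.19 and 6.55 in the 16-week libraries, as log2 of the count scaled to the cell's total tag count. It was 10.18, 10.69, 9.64 and 9.68 on intertypical TEC and 10.52, 10.65, 9.30 and 9.60 on mature mTEC, so the ranges of both classes lay above that of cTEC and overlapped each other. Tuft-like mTEC, of which 116 cells came from the 16-week libraries and 3 from the others, had 10.49 and 10.54 at 16 weeks. Cluster 11 had 11.12, 11.03, 10.35 and 10.50 (10.75 ± 0.38, SD, n = 4 libraries), below tuft-like mTEC in both 16-week libraries on this scale.

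The order of the medullary classes depended on what the tag was scaled to. MHCII took 55.3% of the tag counts of TEC and UEA1 26.4%, and MHCII alone took 43.3%, 39.6%, 69.9% and 66.3% of those of mature mTEC in the 4 libraries. Scaled to the tags other than UEA1 and MHCII, mature mTEC had 11.25, 11.31, 10.59 and 10.77 and intertypical TEC 9.60, 10.42, 8.97 and 9.02, and the 2 ranges no longer overlapped. On this scale cTEC had 7.38, 7.33, 6.73 and 6.45 and tuft-like mTEC 10.33 and 10.56. Cluster 11 had 11.52, 11.45, 11.12 and 11.32 on it, above tuft-like mTEC in both 16-week libraries. Fibroblasts had 8.18 ± 0.33 (SD, n = 4) on the scale of all tags and 6.84 ± 0.55 on the other, from a median of 14 UEA1 counts and 218 tag counts per cell, against 134 and 4204 in cTEC. cTEC thus lay below fibroblasts on the first scale and within 1 SD of them on the second.

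**Figure D1:**
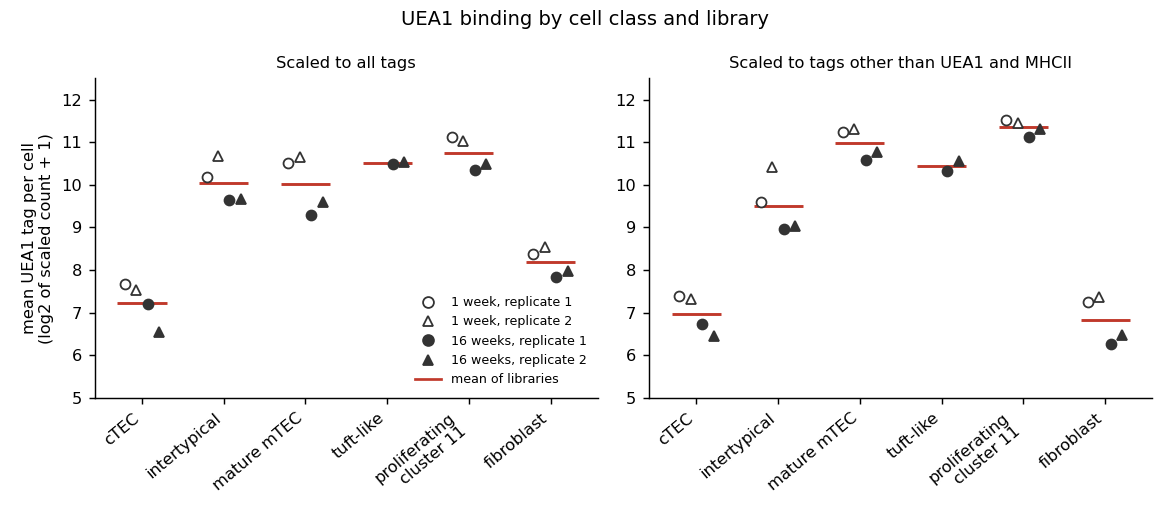
Mean UEA1 tag per cell (log2 of the scaled count + 1) in 6 groups of cells, each point 1 library and each red line the mean of libraries, with the tag scaled to all tags (left) or to tags other than UEA1 and MHCII (right). The intertypical, mature, tuft-like and cluster 11 points lie above cTEC on both scales, and mature mTEC moves above intertypical TEC on the right.

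Fut1 RNA was highest in mature mTEC and cluster 11 and followed the cortical to medullary order of UEA1. In mature mTEC it was 25.3, 16.5, 31.6 and 37.9 CPM (UMIs of the gene per 1000000 UMIs; 27.8 ± 9.2, SD, n = 4 libraries) and in cTEC 5.15, 6.37, 7.82 and 2.71 (5.51 ± 2.16). The ranges did not overlap, and mature mTEC exceeded cTEC by 2.62 on the log2 scale in the pooled counts, with 2.29, 1.37, 2.02 and 3.804 in the 4 libraries. Intertypical TEC had 20.4, 18.6, 10.0 and 10.1 CPM, all 4 values above those of cTEC and below mature mTEC in 3 of 4 libraries (in 1-week replicate 2 they were above it), and cluster 11 had 20.9, 35.1, 35.6 and 39.9. In fibroblasts, taken here as the background, Fut1 was at 1.26 to 1.64 CPM and 1.86% of cells held a UMI at a median depth of 11543 UMIs. The share was 22.8% of mature mTEC at a median of 6933 UMIs and 7.53% of cTEC at 5762.5. After thinning each cell to 2000 UMIs these shares were 6.32% in mature mTEC, 1.57% in cTEC and 0.466% in fibroblasts.

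Within intertypical TEC, Fut1 was lower in 1 of the UEA1-low clusters and uncertain in the other. The UEA1-high clusters 3, 4 and 9 had a mean UEA1 of 10.57 to 10.87 and Fut1 of 18.9, 18.3 and 11.3 CPM in pooled counts. The UEA1-low clusters 5 and 10 both had Scn1a among their leading genes, and cluster 5 also Fmod and Prelp. They had UEA1 of 7.54 and 7.64 and Fut1 of 3.83 and 8.11 CPM. The interval of cluster 5 (2.60 to 5.43, exact Poisson, 95%) lay below those of clusters 3, 4 and 9. That of cluster 10, from 11 UMIs, was 4.05 to 14.5 and overlapped those of clusters 4 (from 14.5) and 9 (8.64 to 14.4). By library cluster 10 was at 2.54 and 9.93 CPM in the 16-week libraries, against 8.97 and 11.95 in cluster 9 and 3.92 and 3.804 in cluster 5. Intervals and floors given here cover counting error only.

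Fut2 RNA was highest in tuft-like mTEC and low in most other UEA1-binding cells. Tuft-like mTEC of the 16-week libraries had 136 and 150 CPM (143 ± 9.8, SD, n = 2) and 58.8% of all tuft-like cells held a UMI. Mature mTEC had 8.15, 23.7, 13.6 and 11.2 CPM (14.2 ± 6.7, n = 4), intertypical TEC 1.52 ± 0.59 and cTEC 0.380 ± 0.481, the last close to the 0.580 ± 0.212 of fibroblasts. Tuft-like mTEC exceeded mature mTEC by 3.32 and 3.74 on the log2 scale in the 2 libraries with enough cells. UEA1-high cluster 11 held 4 Fut2 UMIs in 244 cells (1.01 CPM, interval 0.274 to 2.57), 3 of them in 16-week replicate 1 (2.96 CPM), 1 in 16-week replicate 2 (0.519 CPM) and none in the 1-week libraries. Tuft-like mTEC had less Fut1 than mature mTEC, with 12.2 and 7.29 CPM against 31.6 and 37.9 in mature mTEC of the same libraries while UEA1 was at 10.49 and 10.54 against 9.30 and 9.60. Without UEA1 and MHCII in the scaling the order of UEA1 turned, to 10.33 and 10.56 against 10.59 and 10.77.

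Fut4 varied least. It was at 7.34, 6.17, 9.44 and 6.09 CPM in mature mTEC (7.26 ± 1.56, n = 4), 3.19 ± 0.80 in intertypical TEC and 2.05 ± 0.53 in cTEC, and the mature values lay above all others of these classes. It was not limited to epithelium, since endothelial cells had 7.81 ± 3.46 CPM (n = 4) and fibroblasts 2.01, 1.92, 5.39 and 5.57, while mean UEA1 was no higher than 8.54 in any library of either. In fibroblasts both 16-week values exceeded both 1-week values, which was not tested because each age was 1 pool.

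Fut9 RNA came from few cells. Mature mTEC had 6.52, 22.6, 7.77 and 8.53 CPM (11.4 ± 7.6, n = 4), from 128 UMIs in 38 of 1235 cells, and the 5 highest cells gave 43.0% of them. In cTEC and intertypical TEC it was at 0.671 ± 0.610 and 0.624 ± 0.518 CPM, and 2147 fibroblasts held 1 UMI. The UEA1-low proliferating cluster held 35 UMIs in 21 of 454 cells (2.44 CPM). In tuft-like mTEC it was 10.2 CPM in 1 of the 16-week libraries and 0 of 686239 UMIs in the other. The floor for that 0, set at 3 counts of the total, is 4.37 CPM.

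**Figure D2:**
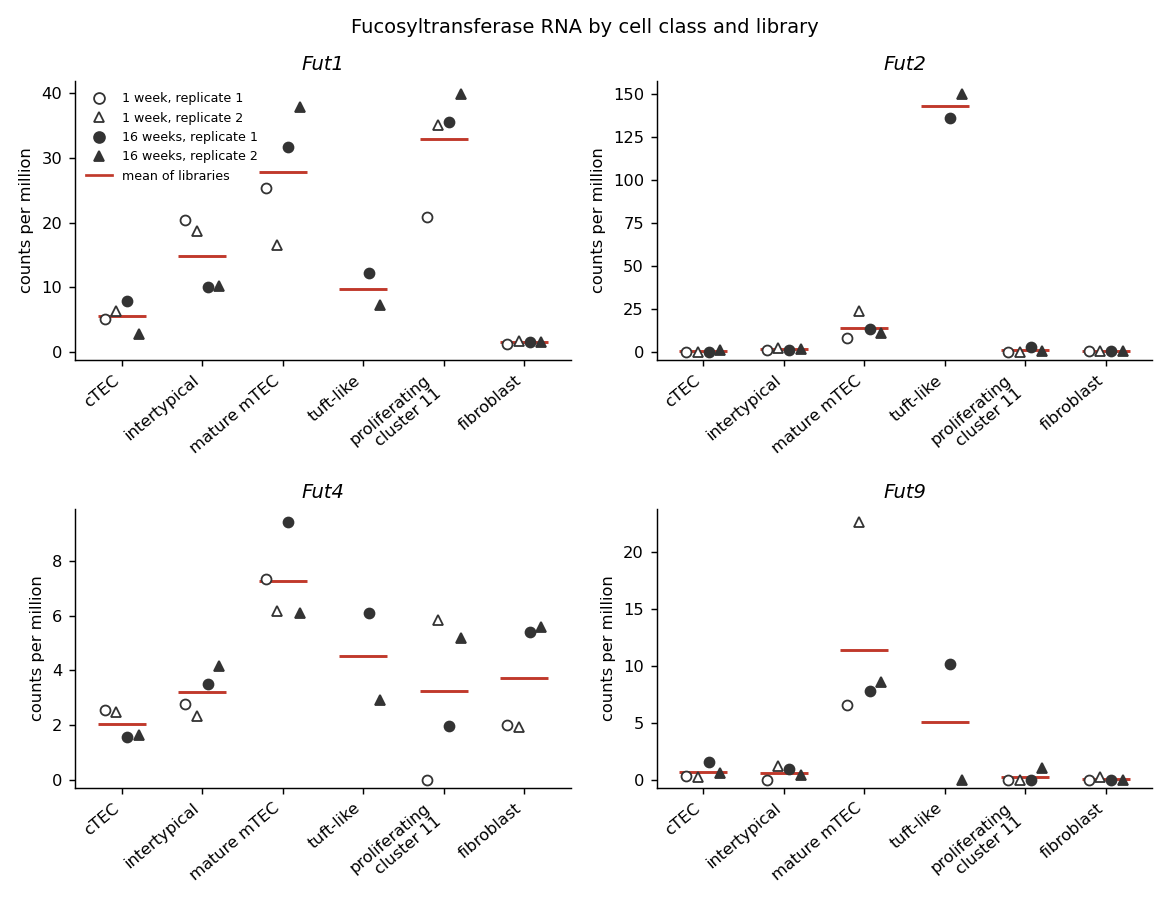
RNA level of Fut1, Fut2, Fut4 and Fut9 (CPM, a separate linear axis per gene) in the same 6 groups, each point 1 library and each red line the mean of libraries. Fut1 is spread over the UEA1-binding groups, Fut2 stands out in tuft-like mTEC at 136 and 150, and Fut4 and Fut9 have their highest means in mature mTEC.

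Each gene was then set against UEA1 over 36 units, each an RNA cluster in 1 library with at least 20 cells. Units share wells, pools and clusters, so coefficients describe these units and carry no p. Spearman's rho with UEA1 was 0.718 for Fut1, 0.464 for Fut2, 0.400 for Fut4 and 0.152 for Fut9 (Pearson's r 0.780, 0.471, 0.329 and 0.205). These genes had 1072, 396, 302 and 192 UMIs in TEC, so their coefficients carry unequal counting error and the order is partly one of depth or may be. The gap between Fut1 and Fut2 depended on the units. With doublets kept rho was 0.685 for Fut1 and 0.669 for Fut2, and with shallow clusters kept 0.745 and 0.700. It was 0.724 and 0.666 with 20 neighbours, and 0.678 and 0.631 with at least 50 cells per unit. Without the proliferating clusters (28 units), a setting that was not planned, the order turned, to 0.639 for Fut1 and 0.657 for Fut2. Fut1 ranked 112 of 11448 genes with at least 500 UMIs in TEC, among which the median rho was -0.03. Its rho was 0.893 and 0.964 over the 7 units of each 1-week library and 0.442 and 0.727 over the 10 and 12 units of the 16-week libraries. Those of Fut2, Fut4 and Fut9 were 0.360, 0.185, 0.669 and 0.430, then 0.071, 0.714, 0.430 and 0.263, then -0.037, -0.158, 0.381 and 0.355.

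The units fell into a UEA1-low and a UEA1-high set of 18 each, with no unit between 8.25 and 9.30, so the coefficients were also computed within each set. Within the UEA1-high set rho was -0.17 for Fut1, -0.40 for Fut2, -0.17 for Fut4 and -0.37 for Fut9. With the tag scaled to tags other than UEA1 and MHCII, it was 0.69 for Fut1, -0.08 for Fut2, 0.27 for Fut4 and 0.02 for Fut9 in that set, and 0.867 for Fut1 over all 36 units. Within the UEA1-low set rho was 0.38 for Fut1 and 0.69 for Fut4 on the scale of all tags, and 0.59 and 0.25 on the other. Fut1 thus had the highest of the 4 coefficients over all units on both scales, and inside the UEA1-high set only on the scale without MHCII. Sec1, outside these 4, had 0.489 over all units on the scale of all tags and 0.678 on the other, both below Fut1. Inside the UEA1-high set it had -0.096 and 0.851, both above Fut1, and inside the UEA1-low set 0.009 and -0.028, both below Fut1. These splits were added after the data were seen.

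**Figure D3:**
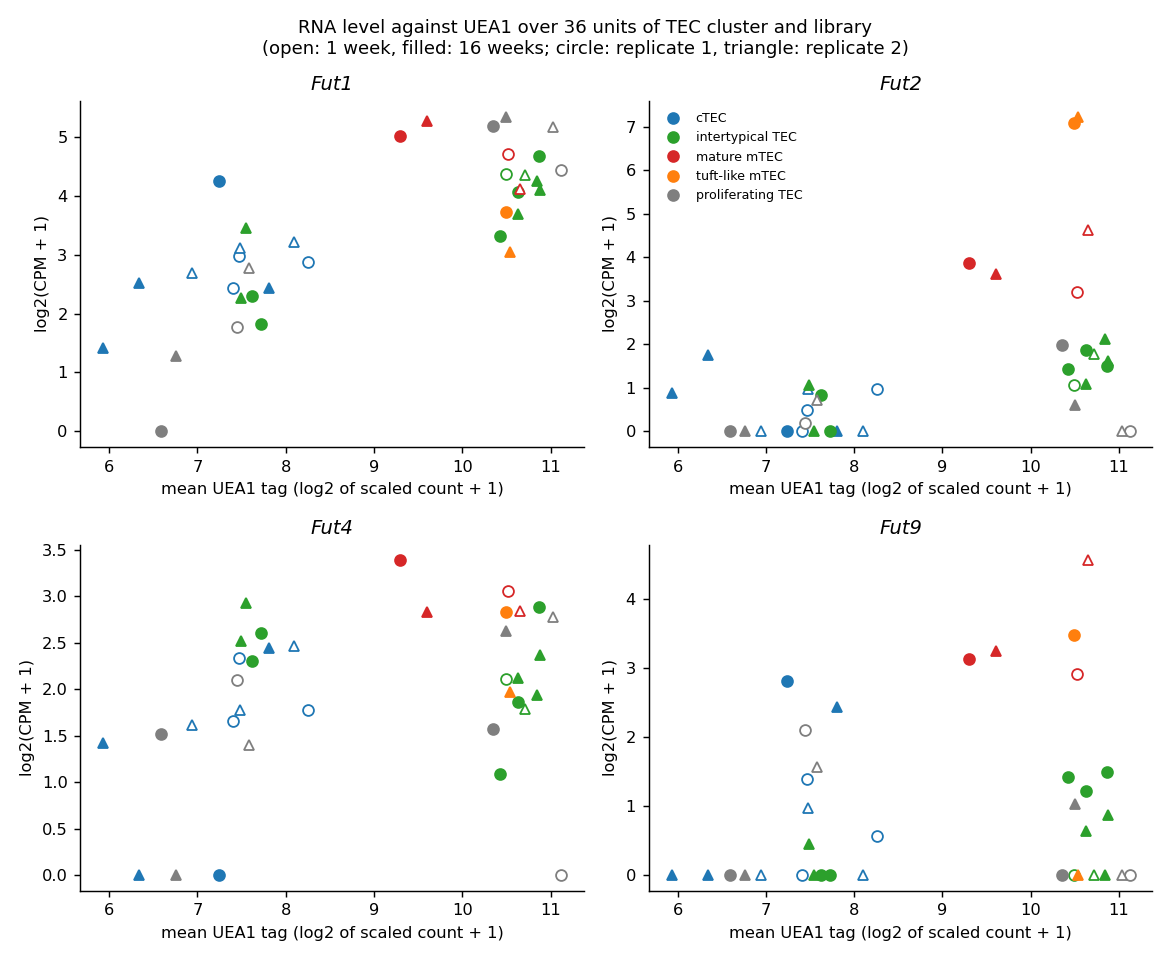
RNA level, as log2(CPM + 1), against mean UEA1 tag (log2 of the scaled count + 1, all tags) for Fut1, Fut2, Fut4 and Fut9, each point 1 of 36 units of TEC cluster and library, coloured by class. UEA1-low units lie at or below 8.25 and UEA1-high units at or above 9.30, and Fut1 is higher in most units of the second set.

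By the same measure the genes most like UEA1 were Rgs5 (rho 0.830), Kcnq3 (0.826), Ncam1 (0.819), Htr7 (0.817) and Col6a4 (0.811), all above Fut1. Rgs5 encodes a regulator of G protein signalling, Kcnq3 a potassium channel subunit and Ncam1 an adhesion molecule. The genes most like Fut1 were Relt (0.909), Skint10 (0.895), Hs3st3b1 (0.885), Has2 (0.884) and Ipcef1 (0.884). Relt encodes a receptor of the tumour necrosis factor family, Has2 a hyaluronan synthase and Hs3st3b1 a heparan sulphate sulphotransferase.

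TEC were next divided by the tag alone. A 2-component mixture put the limit at 9.93 and gave 2726 UEA1-high and 3458 UEA1-low cells. Fut1 was at 19.6, 20.7, 23.0 and 27.3 CPM in UEA1-high cells and at 4.29, 6.33, 12.1 and 12.04 in UEA1-low cells. The classes did not overlap, and in all 4 libraries the UEA1-high cells had more. Fut1 was higher by 1.40 ± 0.21 (log2, SE) with an adjusted p of 0.0225 (edgeR quasi-likelihood test, library as block, Benjamini-Hochberg over 19237 genes). In this comparison 8.57% of all genes tested passed, 3.07% as higher and 5.5% as lower, so a called gene was not rare. Fut1 passed as 1 of the 4 members.

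The direction held when a library was left out and the call did not. With each library left out in turn, the adjusted p of Fut1 was 0.0818 and 0.0944 (without 1-week replicates 1 and 2) and 0.0556 and 0.0730 (without 16-week replicates 1 and 2), at differences of 1.21 to 1.58. Without the replicate block it was 1.36 with an adjusted p of 0.0681, and summed per pool 1.43 with an adjusted p of 0.428 (edgeR). With the tag scaled to tags other than UEA1 and MHCII it was 1.93 with an adjusted p of 0.00131.

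The other members did not pass. Fut2 was at 4.22, 7.68, 12.8 and 11.8 CPM in UEA1-high and 0.148, 0.791, 6.98 and 4.09 in UEA1-low cells, higher in 4 of 4 libraries (2.21 ± 0.60, adjusted p 0.0776 by edgeR). It passed with DESeq2 (adjusted p 0.00769), with no filter on low counts (edgeR, 0.0457) and with the tag scaled in 3 other ways. Fut9 was at 3.01, 8.06, 1.52 and 3.83 against 1.28, 1.05, 4.76 and 1.90 CPM (0.84 ± 0.73, edgeR adjusted p 0.471), lower in 16-week replicate 1. Fut4 was at 3.31, 4.22, 4.72 and 4.33 against 2.91, 2.17, 5.23 and 4.67 CPM, with a difference of 0.11 ± 0.27 (edgeR adjusted p 0.997). Sec1 differed by 1.64 ± 0.56 (edgeR adjusted p 0.122), higher in 4 of 4 libraries.

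The UEA1 classes were made of different cells. UEA1-high cells were 54.6% intertypical clusters 3, 4 and 9, 23.5% mature mTEC, 8.29% cluster 11, 6.82% cTEC and 3.60% tuft-like mTEC, and UEA1-low cells were 42.6% cTEC, 21.2% intertypical clusters 5 and 10, 17.2% mature mTEC and 12.7% UEA1-low proliferating cells. At 1 week cTEC were 36.7% and 30.9% of the UEA1-high cells and at 16 weeks 0.489% and 0.501%. Of the UEA1-low cells, cTEC were 75.4% and 73.0% at 1 week and 9.57% and 9.77% at 16 weeks. Mature mTEC were 1.35% and 1.39% of them at 1 week and 32.8% and 33.9% at 16 weeks. Intertypical clusters 5 and 10 were 1.25% and 0.416% at 1 week and 40.2% and 43.1% at 16 weeks, so the pooled shares describe neither age. When cells were instead divided at the median UEA1 within each RNA cluster and library, a comparison added after the data were seen, Fut1 differed by 0.37 with an adjusted p of 0.310 (edgeR).

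Within single classes, cells at or above the median UEA1 of their class and library were compared with those below it. In mature mTEC, Fut1 was at 35.2, 19.4, 36.9 and 49.2 CPM in the upper cells and 14.9, 14.3, 25.8 and 27.5 in the lower cells. The upper cells had more in 4 of 4 libraries, by 0.70 ± 0.20 (log2, SE), but over 12388 genes the adjusted p was 0.310 (edgeR) and Fut1 did not pass. Only 0.0161% of genes passed, Nefl as higher and Malat1 as lower (0.00807% each), while 1370 had an unadjusted p under 0.05 and DESeq2 called 147. Fut2 differed by 0.43 ± 0.44 and was higher in 3 of 4 libraries (edgeR adjusted p 0.784), Fut4 by 0.10 ± 0.42 and Fut9 by 0.40 ± 0.79. Between the upper and lower tertile Fut1 differed by 1.65 with an adjusted p of 0.154 (edgeR), the lowest of 16 planned settings, over which the difference lay between 0.61 and 1.65.

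In intertypical TEC, where 18.5% of 12448 genes passed (9.56% higher and 8.94% lower), Fut1 was at 24.9, 20.9, 14.8 and 14.9 CPM in the upper cells and 18.1, 16.8, 6.70 and 7.03 in the lower cells. It rose by 0.95 ± 0.23 with an adjusted p of 0.0102 (edgeR) and was higher in 4 of 4 libraries. The call was lost without 16-week replicate 1 (adjusted p 0.313) or replicate 2 (0.342), with DESeq2 (0.111), without the replicate block (0.408) and in sums per pool (0.221). Divided within each RNA cluster, the difference was 0.06 with an adjusted p of 0.999 (edgeR). The class mixes the UEA1-high and UEA1-low clusters described above, and no difference was detectable within them. Fut2, Fut4 and Fut9 did not pass the filter on low counts here or in cTEC.

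In cTEC, where 6.4% of 12855 genes passed (3.73% higher and 2.68% lower), Fut1 was at 6.23, 10.1, 16.1 and 1.68 CPM in the upper and 4.68, 4.34, 4.42 and 3.20 in the lower cells. It was higher in 3 of 4 libraries and did not pass (0.70 ± 0.34, edgeR adjusted p 0.237). The 16-week libraries held 52 and 124 cTEC, few cells for a gene at this level. Whether the differences of Fut1 between upper and lower cells differ between the 3 classes was not tested.

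Fut1 was also read in quartiles of UEA1 within a class, as pooled counts of the libraries with at least 80 cells. In mature mTEC it was at 16.4, 34.9, 37.7 and 51.6 CPM from the lowest to the highest quartile, and the intervals of the lowest (12.3 to 21.4) and highest (43.9 to 60.3) were far apart. With the tag scaled to tags other than UEA1 and MHCII, the values were 17.4, 38.0, 41.2 and 48.1. These quartiles of mature mTEC pool sub-clusters that differ in Fut1 and UEA1, described below. Intertypical TEC gave 5.58, 10.4, 14.6 and 16.5 CPM and cTEC 3.89, 4.95, 5.57 and 10.7, with the highest cTEC quartile (7.30 to 15.1) above the lowest (2.65 to 5.53). Median depth fell with UEA1, from 7668 to 6209 UMIs in mature mTEC from 8761 to 4464 in intertypical TEC and from 7268 to 3936 in cTEC. After thinning, the share of cells with a Fut1 UMI was 3.07%, 4.81%, 8.53% and 8.97% in mature mTEC, while in cTEC it was 1.99%, 1.25%, 0.744% and 1.75%, without the order of the CPM. Fut4 gave 8.97, 5.38, 6.78 and 7.52 CPM in mature mTEC, with overlapping intervals and no order. Fut2 gave 10.2, 5.38, 13.3 and 18.0 and Fut9 7.42, 6.57, 4.72 and 14.4, both highest in the highest quartile. On the scale without MHCII neither kept that order, with 11.2, 9.78, 13.2 and 12.502 for Fut2 and 7.90, 10.4, 5.71 and 8.60 for Fut9.

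**Figure D4:**
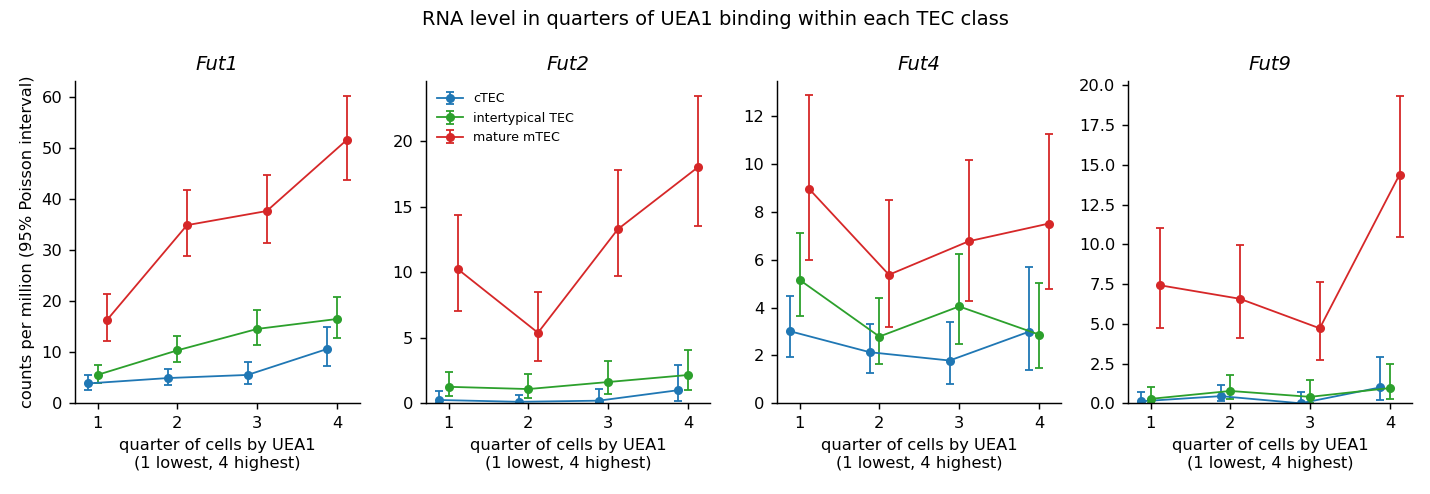
RNA level of Fut1, Fut2, Fut4 and Fut9 (CPM, a separate axis per gene) in 4 quartiles of UEA1 binding, lowest to highest, in cTEC, intertypical TEC and mature mTEC. Points are pooled counts and bars exact 95% Poisson intervals, and Fut1 goes from 16.4 to 51.6 in mature mTEC while Fut4 shows no order.

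Mature mTEC hold cells that imitate other epithelia, and clustering them alone, added after the data were seen, gave 7 sub-clusters. A microfold-like group of 38 cells, with 8 of 8 listed markers including Gp2, Spib and Ccl20, had the highest Fut1 at 104 CPM (interval 74.8 to 141) and the highest UEA1 at 10.94, or 12.19 without MHCII in the scaling. Its 41 Fut1 UMIs came from 15 cells, the 5 highest giving 61.0%, and 27 of the 38 cells were from 16-week replicate 2, so this is a value of few cells of mainly 1 library. Sub-cluster 3, which carried Aire and Fgf21, had 46.3 CPM (39.95 to 53.3) in 210 cells. Sub-cluster 1, of 264 cells, held 6 keratinocyte markers such as Krt10, Krtdap and Sbsn, but its leading genes also included Bpifa1, Pigr, Wfdc2, Krt19 and Plet1, which are known from airway, mucosal or simple epithelia, so it is given no cell type name. It had Fut1 of 16.1 CPM (11.9 to 21.4) and UEA1 of 9.45, or 10.30 without MHCII. When mature mTEC were divided at the median UEA1 within each sub-cluster and library, 0 of 12431 genes passed (edgeR). Fut1 was still higher in the upper cells but did not pass, so a link with UEA1 inside the sub-clusters was not resolved.

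Sub-cluster 1 held 99 of the 174 Fut2 UMIs and 94 of the 128 Fut9 UMIs of mature mTEC. Fut2 was at 33.2 CPM there (interval 27.01 to 40.5) and at 2.57 to 12.7 in the other sub-clusters, with its UMIs in 42 cells, of which the 5 highest gave 44.4%. Fut9 was at 31.6 CPM (25.5 to 38.6) and at 0 to 8.59 elsewhere, with its UMIs in 23 cells, of which the 5 highest gave 58.5%. Inside these cells, where so few carry the counts, the quartiles of UEA1 gave Fut2 of 17.0, 28.6, 29.1 and 59.1 CPM, Fut9 of 6.55, 40.7, 19.4 and 63.3 and Fut1 of 9.17, 10.6, 15.8 and 28.9, each lowest in the lowest quartile and highest in the highest. On the scale without MHCII they were 27.6, 19.9, 40.1 and 48.9 for Fut2, 19.6, 17.3, 47.0 and 47.3 for Fut9 and 10.4, 13.3, 19.4 and 23.7 for Fut1. Fut4 was at 2.57 to 12.7 CPM over the sub-clusters, from 2 to 36 UMIs each, and with overlapping intervals in all pairs no difference was resolved at this depth.

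**Figure D5:**
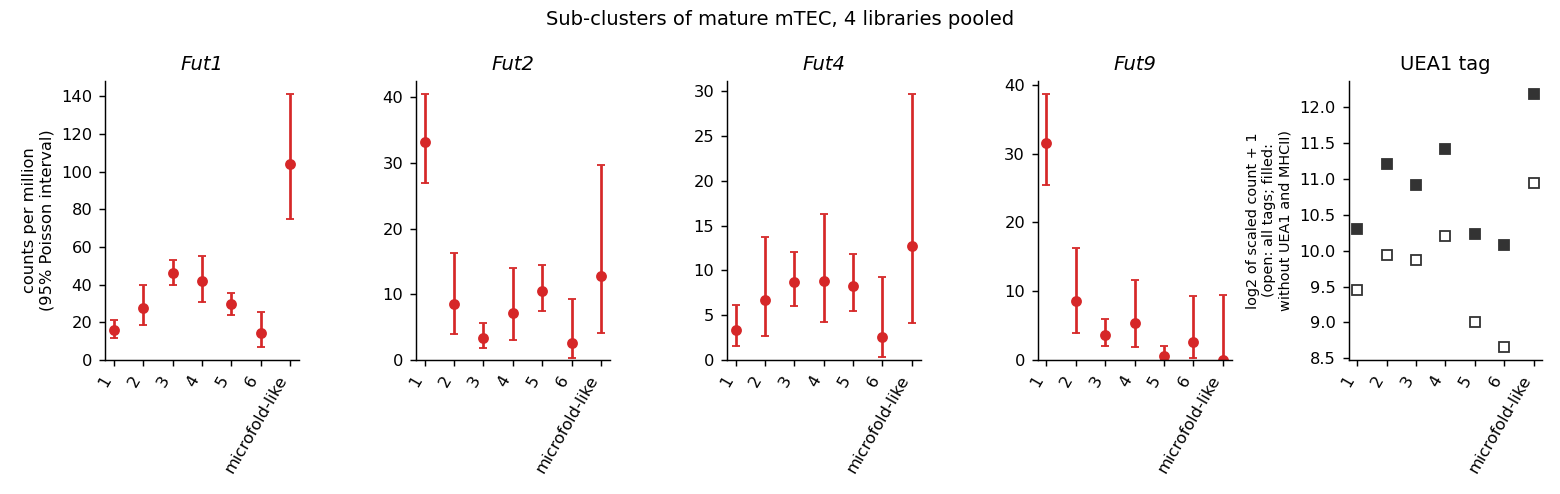
Pooled RNA level of the 4 genes (CPM with exact 95% Poisson intervals, a separate axis per gene) and mean UEA1 tag (log2 of the scaled count + 1, open for all tags, filled without UEA1 and MHCII in the scaling) in 7 sub-clusters of mature mTEC. The microfold-like cells are highest in Fut1 (104) and in UEA1, and sub-cluster 1 in Fut2 (33.2) and Fut9 (31.6).

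Fut2 did not follow UEA1 among tuft-like mTEC in a way that held under both scalings. In the 16-week libraries, 59 cells at or above the median UEA1 had 170 CPM (139 to 207) and 57 cells below it 117 (91.2 to 149) when the tag was scaled to all tags. Scaled to tags other than UEA1 and MHCII, the order turned, with 117 CPM (91.8 to 146) above and 179 (144 to 219) below. Fut1 gave 5 and 6 UMIs on the first scale and 10 and 1 on the second. This comparison, too, was added after the data were seen.

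The other genes of the pathway were read from lists of fucosyltransferases, GDP-fucose supply, chain building, competing caps on galactose and fucosidases. Between UEA1-high and UEA1-low TEC, where 8.57% of all genes passed, 2 of the 10 fucosyltransferase genes tested passed (of 11 listed), Fut1 as higher and Pofut2, which fucosylates proteins directly, as lower (-0.55 ± 0.12, edgeR adjusted p 0.0458). The median difference of the list was 0.20, against 0.04 over all genes. None of the 6 tested of 8 genes of GDP-fucose supply passed, nor either fucosidase. Among 27 of 30 chain-building genes tested, B4galt6 (1.81 ± 0.30, edgeR adjusted p 0.0277) and B4galt1 (0.61 ± 0.12, 0.0397), whose enzymes add galactose, were higher and B3galt5, which builds type 1 chains, was lower (-0.72 ± 0.12, 0.0268). Among 10 of 12 capping genes tested, St3gal6, a sialyltransferase that caps galactose, was lower by edgeR (-1.48 ± 0.15, adjusted p 0.0109). These shares of chain-building and capping genes were near that of all genes. Like that of Fut1, the other 5 calls were lost with any library left out, without the replicate block, in sums per pool and within RNA clusters. B3galt5 was at 0.29 with the raw UEA1 count.

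Within classes, calls on these lists were most numerous in intertypical TEC, where calls over all genes were too, at 18.5% against 6.4% in cTEC and 0.0161% in mature mTEC. There St3gal6 was again lower (-1.58 ± 0.19, edgeR adjusted p 7.24e-05) and B4galt6 higher (1.61 ± 0.31, 0.00236), and 2 of 6 fucosyltransferase genes (Fut1 and Fut8), 6 of 17 chain-building genes (5 higher) and 3 of 7 capping genes (2 higher) passed. Divided within RNA clusters, St3gal6 was at -0.39 and B4galt6 at 0.03, and neither passed (edgeR adjusted p 0.844 and 0.999). In cTEC 1 listed gene passed, B3galt5 (-0.63 ± 0.15, edgeR adjusted p 0.0220), and in mature mTEC none did, where St3gal6 differed by -0.56 ± 0.16 (0.305). Over the 36 units rho with UEA1 was 0.723 for both B4galt6 and B4galt1, close to the 0.718 of Fut1, 0.664 for Gcnt1, which starts branched mucin-type chains, and -0.80 for St3gal6, so Fut1 was not alone among glycosylation genes in its likeness to UEA1.

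Across ages UEA1 and Fut1 did not move in parallel in mature mTEC. The lectin was lower at 16 weeks, 9.45 ± 0.21 (SD, n = 2 wells) against 10.59 ± 0.09, or 10.68 ± 0.13 against 11.28 ± 0.04 without MHCII in the scaling. Fut1 was at 31.6 and 37.9 CPM at 16 weeks against 25.3 and 16.5 at 1 week. In intertypical TEC both were lower at 16 weeks, UEA1 at 9.66 ± 0.03 against 10.43 ± 0.36 and Fut1 at 10.1 ± 0.0855 against 19.5 ± 1.25 CPM. UEA1-high cluster 4 held 79 of the 96 and 76 of the 82 intertypical cells of the 1-week libraries, and the 16-week class included the UEA1-low clusters 5 and 10. Within cluster 4 alone UEA1 was at 10.63 and 10.85 at 16 weeks against 10.49 and 10.71 at 1 week, and Fut1 at 15.9 and 18.0 against 19.8 and 19.5 CPM, so UEA1 was not lower there. Fut2 in mature mTEC was at 8.15 and 23.7 CPM at 1 week and 13.6 and 11.2 at 16 weeks, and Fut4 and Fut9 overlapped between the ages as well. With 1 pool per age no age difference was tested.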

How the data were processed

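The authors deposited raw RNA and tag counts (UMIs per gene and per tag) for 4 libraries, aligned to mm10 with STARsolo 2.7.9a and holding cells of at least 2000 UMIs. The labels name version 2 of the 3′ kit and the methods version 3. Here 253 likely doublets (2.54%) were removed, and cells were clustered with scanpy 1.11.5 (2000 variable genes, 30 components, 10 neighbours) and named when at least 3 listed markers were detected. Each UEA1 count was divided by the cell's total tag count, or by that without UEA1 and MHCII. Counts were summed per library and UEA1 class, with at least 20 cells per sum, and tested with edgeR 4.0.16 (quasi-likelihood, adjusted p under 0.05, TMM, low counts filtered) in R 4.3.3, with DESeq2 1.42.0 as an alternative. Both sums of a pair came from the same well, so the library was a block. P-values measure the spread between 4 wells of 2 pools only. Gene names and positions are those of GENCODE M21 for GRCm38. The tests were tried on simulated data. The genes named were the 4 members, Sec1, the called genes of the glycosylation lists and the 5 genes most like UEA1 or Fut1 by rho. Nefl, Malat1, Gcnt1 and St3gal6 in mature mTEC were named after their values were seen. The members and lists were chosen with earlier results of these data known, and the comparisons described as added were chosen after seeing the data.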

Additional observations from a re-analysis of the deposited data

Results flagged for a closer look

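Fut4 did not pass between UEA1-high and UEA1-low TEC, and its values pointed in opposite directions at the 2 ages. In both 1-week libraries the UEA1-high cells had more, by 0.406 CPM in replicate 1 (3.31 against 2.91), with 4.22 against 2.17 in replicate 2. In both 16-week libraries they had less, 4.72 against 5.23 and 4.33 against 4.67. The UEA1-high values rest on 11, 11, 31 and 60 UMIs and the UEA1-low values on 59, 33, 33 and 64. The UEA1-low class held a different mix of cells at each age. Mature mTEC, where Fut4 was above that of cTEC and intertypical TEC, were 1.35% and 1.39% of it at 1 week and 32.8% and 33.9% at 16 weeks. The difference between ages was not tested, nor was the part of the cell mix in it.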

How the results depend on the processing

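Depth and the number of wells limit these results: 4 wells of 2 pools, few UMIs of Fut2 and Fut9 in cTEC and intertypical TEC, few of Fut4 in any class, and tag levels that depend on the scaling. Counts of called genes changed most, and the cause was not tested. Between UEA1-high and UEA1-low TEC, 1649 genes were called, against 3576 with DESeq2, 3068 with the raw UEA1 count (2479 higher, 589 lower), 8097 with a centred log ratio (3799 higher, 4298 lower), 7461 without UEA1 and MHCII in the scaling (3708 higher, 3753 lower) and 0 in sums per pool or with cells divided within RNA clusters on either scaling. Leaving out 1 library gave 0 to 289 calls, 0 without 1-week replicate 1 or 16-week replicate 2, 122 without 1-week replicate 2 and 289 without 16-week replicate 1.

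In mature mTEC, 2 genes were called, against 147 with DESeq2, 715 with no filter on low counts, 16 between tertiles, 1 with doublets kept, with the raw UEA1 count or with shallow clusters kept, and 0 with the centred log ratio, without MHCII, within sub-clusters, within quartiles of depth and per pool, and 0 to 3 with a library left out. In intertypical TEC, 2303 were called, against 633 with DESeq2, 5369 with doublets kept, 8 within RNA clusters, 1373 within quartiles of depth, 264 per pool and 186 to 3698 with a library left out (3698 without 1-week replicate 2, 226 and 186 without 16-week replicates 1 and 2). In cTEC, 823 were called (479 higher, 344 lower), against 372 with DESeq2, 1389 with no filter (635 higher, 754 lower), 43 with the centred log ratio, 321 within RNA clusters, 48 within quartiles of depth, 339 per pool, 37 with the raw UEA1 count (10 higher, 27 lower), 225 with shallow clusters kept, 236 without MHCII and 200 to 824 with a library left out (200 and 243 without 1-week replicates 1 and 2).

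Without the replicate block, 225 genes were called between UEA1-high and UEA1-low TEC, 0 in mature mTEC, 8 in intertypical TEC and 0 in cTEC, and both Fut1 calls were lost (1.36 and 0.80). The pairing of sums by well is part of the design, and leaving the block out changed no other call of a member.

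Fut1 kept its direction under every alternative run in the 4 comparisons, from 1.21 to 1.93 over the planned ones between UEA1-high and UEA1-low TEC, where 9 of 15 passed. In intertypical TEC 11 of 16 passed, and in mature mTEC and cTEC none of 16 and 14. With a library left out Fut4 between UEA1 classes was -0.089 to 0.25, in mature mTEC -0.067 to 0.036, and Fut9 in mature mTEC -0.0086 to 1.32. Within RNA clusters Fut4 was -0.13, and without MHCII as well Fut2 was -0.092, Fut4 -0.29 and Fut9 -0.39. In mature mTEC, Fut2 was -0.44 with the centred log ratio and -0.52 with the raw count, Fut9 -0.17 and -0.82, and -0.045 between tertiles. Fut4 was -0.62 within sub-clusters, -0.079 within quartiles of depth and -0.061 without MHCII. None of these reversed values passed.

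Over units, rho for Fut2 was 0.666 with 20 neighbours, 0.669 with doublets kept and 0.700 with shallow clusters kept, against 0.724, 0.685 and 0.745 for Fut1. Without the proliferating clusters Fut2 was ahead, at 0.657 against 0.639 for Fut1. In the UEA1-high set alone rho was -0.166 for Fut1 and Fut4, -0.399 for Fut2 (-0.0826 without MHCII) and -0.369 for Fut9. In the UEA1-low set it was 0.383 for Fut1, 0.692 for Fut4, -0.0165 for Fut2 (0.00551 without MHCII) and, without MHCII, 0.527 for Fut9. The log2 ratio of tuft-like to mature mTEC was -1.92 to -0.48 for Fut1 with a library left out and 3.16 to 3.65 for Fut2, that of mature mTEC to cTEC 1.35 to 1.76 for Fut4, and for Fut9 5.64 with doublets kept. Fut1 in cTEC had no value where leaving out a 1-week library removed it by the filter on low counts, nor had the thinned ratios of Fut4 and Fut9.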

Other observations

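Some cells held UMIs of both Fut1 and Fut2, counted without regard to depth. Of 119 tuft-like mTEC, 11 held a Fut1 UMI, 70 a Fut2 UMI and 7 both. Of 1235 mature mTEC, 281 held Fut1, 8.26% Fut2 and 33 cells both. Among 1660 cTEC, 125 held Fut1 and 7 Fut2, and none held both. Of 2472 intertypical TEC, 211 held Fut1, 32 Fut2 and 8 both, and of 698 proliferating TEC 130, 8 and 3. The overlap expected from the share of each gene was not computed, so these counts show neither a link between the genes nor an exclusion.

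Among the surface tags, CD80, a costimulatory ligand of mature mTEC, had the highest rho with each of the 4 genes over the 36 units (0.725 for Fut1, 0.596 for Fut2, 0.466 for Fut4 and 0.338 for Fut9). UEA1 ranked 2 for Fut1 and Fut2, 4 for Fut4 and 5 for Fut9.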
